A study of Homo sapiens with 6 samples.

Results

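Small RNA host genes are transcribed genes whose introns or exons hold small nucleolar RNAs (snoRNAs) or microRNAs (miRNAs). They were chosen here with earlier results of these data known. The rule used only names, and kept listed human genes with an SNHG symbol or a symbol of the form MIRxHG, GAS5 and DANCR. This rule took 42 of the 18625 genes listed: 23 SNHG genes, GAS5 and DANCR, together called the SNHG type below, and 17 MIRxHG genes. GENCODE 44 annotates all 42 as long noncoding RNA genes under the same symbols. The RNA-seq came from NB4, a human acute promyelocytic leukemia cell line that carries the PML-RARA fusion. The cells were kept for 3 days in DMSO, the solvent control, or in 10 μM Tan I (Tanshinone I, a lipid-soluble compound of Salvia miltiorrhiza), with 3 libraries in each group, and the comparison asked how Tan I changed gene expression. Neither group carried a further genetic change according to the labels. Nothing stated that the libraries came from separate cultures, so the p-values measure the spread between these libraries, which may be technical, and all of them describe 1 cell line.

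Most snoRNAs of human cells are not transcribed on their own. They are trimmed out of introns that splicing removes from a host transcript, and they then guide the methylation or pseudouridylation of ribosomal RNA. Many snoRNA hosts start with a terminal oligopyrimidine (TOP) tract, a C followed by a run of C and T, which they share with the genes of ribosomal proteins and translation factors, and the spliced, mostly noncoding transcript is often destroyed in the cytoplasm by nonsense-mediated decay. A miRNA host transcript is instead cut by Drosha with its partner DGCR8, the hairpin is exported by exportin-5 and Dicer releases the mature miRNA. GAS5 is known as a growth arrest transcript that binds the glucocorticoid receptor, and DANCR was named for its role in holding back differentiation. MIR17HG carries the miR-17-92 cluster, a target of MYC in blood cancers, and MIR155HG is the host of miR-155 in lymphoid and myeloid cells.

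The libraries were made from total RNA and counted per gene, so what was measured is the host transcript, and neither mature miRNAs nor snoRNAs were measured. The seeds below are shown because they say which miRNAs a host would supply. They come from RefSeq (GRCh38.p14) for 4 of the 17 MIRxHG genes: the 1 host gene called, and 3 hosts of miRNA clusters or pairs. The mature miRNAs are written 5′ to 3′ with the seed, bases 2 to 8, in capitals. MIR1915HG, the 1 host gene that passed the call rule below, holds miR-1915 in an intron. The mature arms lie at chr10:21496576-21496595 (3p) and chr10:21496609-21496630 (5p), both on the minus strand.
miR-1915-3p: cCCCAGGGcgacgcggcggg
miR-1915-5p: aCCUUGCCuugcugcccgggcc

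MIR222HG, an X-linked host, holds miR-221 and miR-222 in an intron, at chrX:45746180-45746202 and chrX:45747036-45747056 on the minus strand for the arms shown. The 2 arms share the seed GCUACAU.
miR-221-3p: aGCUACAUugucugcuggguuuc
miR-222-3p: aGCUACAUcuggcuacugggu

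MIR17HG holds 6 miRNAs on the plus strand, the arms shown running from chr13:91350618-91350640 to chr13:91351361-91351382. Of these, miR-17-5p and miR-20a-5p share the seed AAAGUGC, from which miR-18a-5p differs, and miR-19a-3p and miR-19b-3p share GUGCAAA.
miR-17-5p: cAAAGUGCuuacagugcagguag
miR-20a-5p: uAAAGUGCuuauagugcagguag
miR-18a-5p: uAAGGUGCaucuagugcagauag
miR-19a-3p: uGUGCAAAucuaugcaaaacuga
miR-19b-3p: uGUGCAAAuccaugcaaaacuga
miR-92a-3p: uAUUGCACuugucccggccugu

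MIR29B2CHG holds miR-29b and miR-29c, with the seed AGCACCA in both, at chr1:207802450-207802472 and chr1:207801865-207801886 on the minus strand.
miR-29b-3p: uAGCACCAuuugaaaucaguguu
miR-29c-3p: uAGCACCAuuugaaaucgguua

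In all, the 17 MIRxHG genes hold 34 miRNAs, of which 27 lie in introns of the canonical transcript, 4 in its exons and 3 outside it. The exonic ones include MIR155 and MIR600. Outside SNHG14, RefSeq places 59 snoRNAs in the host genes by position, with the strand not compared. By this 55 are intronic, 2 exonic and 2 across an exon boundary. SCARNA13, SCARNA15 and SCARNA16, by name small Cajal body RNAs, are counted among them. Of these 59, 1 lies in an intron of a MIRxHG gene, MIR99AHG, and the others lie in the SNHG type. SNHG14, the long host of the Prader-Willi region, holds another 83. GAS5 holds 11 (SNORD44, SNORD47, SNORD74 to SNORD81 and SNORA103) and SNHG1 holds 8 (SNORD22 and SNORD25 to SNORD31), all of the SNHG1 ones in introns.

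The start of a host transcript is shown for the TOP tract. A RefSeq promoter (GRCh38.p14) was matched for 36 of the 42 host genes. The tract searched was a C followed by at least 4 letters that are C or T, on the transcribed strand only, beginning within 5 bases of the annotated start. It was held by 10 of 21 SNHG-type promoters (47.6%) and by 7 of 15 MIRxHG promoters (46.7%), beside 7408 of all 35116 promoters (21.1%). SNHG29, GAS5 and SNHG1, the most abundant hosts, were scored without it. The score depends on the annotated start: that used for GAS5, chr1:173869045, lies outside the GENCODE gene, which ends at 173868882. The starts used for SNHG3 (chr1:28505943, gene from 28505980) and SNHG14 (chr15:24823608, gene from 24978583) also lie outside their genes. Both were scored without the tract, so that score does not show that a host lacks it. The windows below run from 10 bases before the annotated start to 20 bases from it, on the gene's own strand, with the tract in capitals. They belong to 4 SNHG genes whose values are given below, and to MIR1915HG, whose window has no such tract. The window of SNHG12 is chr1:28581854-28581883, that of SNHG32 chr6:31834906-31834935, that of SNHG5 chr6:85678714-85678743, that of SNHG19 chr16:2155339-2155368 and that of MIR1915HG chr10:21497241-21497270.
SNHG12: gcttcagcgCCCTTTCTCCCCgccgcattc
SNHG32: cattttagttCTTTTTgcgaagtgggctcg
SNHG5: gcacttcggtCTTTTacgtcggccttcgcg
SNHG19: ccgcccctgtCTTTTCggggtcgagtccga
MIR1915HG: gcgacgagccattgaggaccagggtcgcgc

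The most abundant host transcripts were all of the SNHG type, while the lower SNHG genes overlapped the MIRxHG genes. The values are normalized counts, that is, reads per gene divided by 1 size factor per library, and to compare genes they were divided by the length of the canonical GENCODE transcript. Per kb of that transcript, SNHG29, which holds SNORD49A, SNORD49B and SNORD65, had a mean level of 60821 normalized counts over the 6 libraries, with single libraries between 45489 and 78224. GAS5 followed with 38331 per kb (30608 to 48138) and SNHG1 with 30138 per kb (25064 to 33842). The ranges of neighbours in this order overlapped, but in each of the 6 libraries the order was SNHG29, GAS5, SNHG1. A gap separated these from SNHG32 (6165 per kb, 4653 to 7605), SNHG5 (5658 per kb, 4201 to 7735), SNHG19 (5053 per kb, 3706 to 7352) and SNHG3 (4593 per kb, 3739 to 5546), whose ranges overlapped each other. DANCR had 433 per kb.

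The highest of the MIRxHG genes, MIR222HG, had 215 normalized counts per kb (176 to 266), and MIR600HG followed with 119 (80.9 to 143), without an overlap of their ranges. MIR1915HG had 55.1 per kb, MIR17HG 46.5, MIR155HG 25.7 and MIR210HG 15.8. Several SNHG genes lay at or below MIR222HG, among them SNHG11 (208 per kb), SNHG25 (197), SNHG30 (183), SNHG21 (147) and SNHG10 (119), and SNHG14 was the lowest of the 42 with 1.28 per kb. These orders depend on the transcript taken as canonical: for SNHG29 it spans 443 bases in 6 exons, while all its annotated exons together span 8947.

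**Figure D1:**
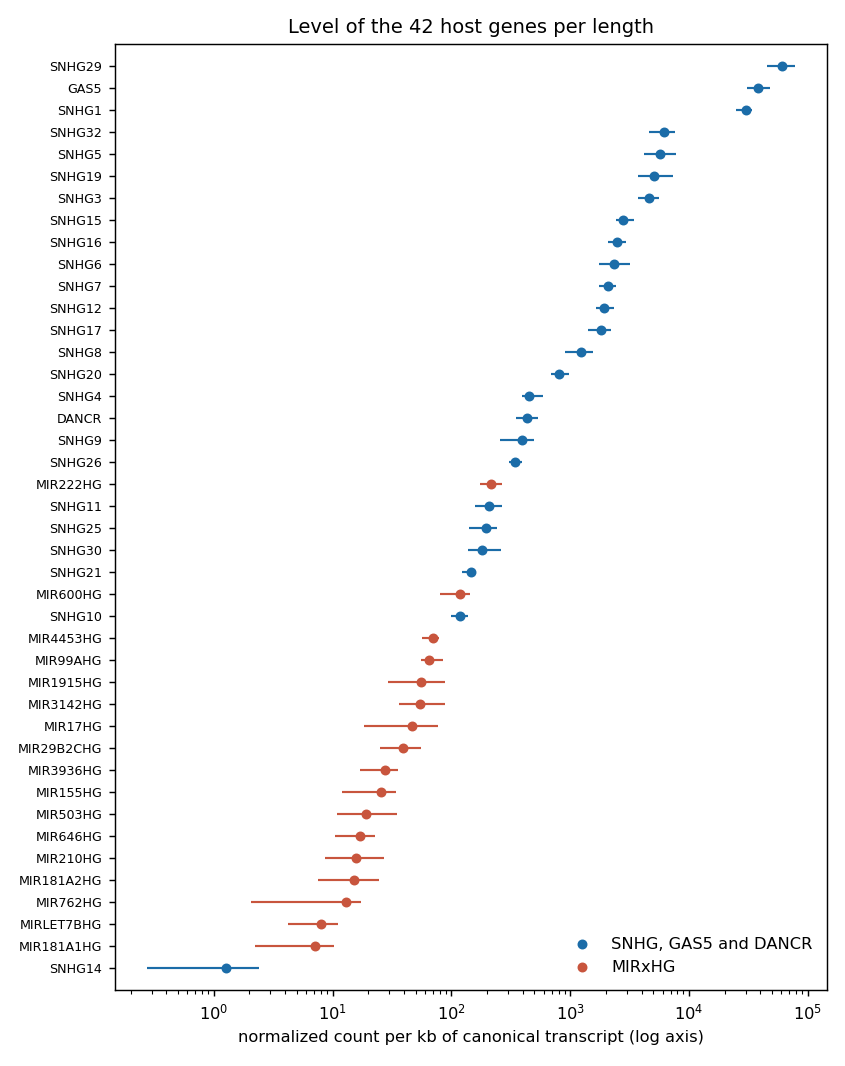
Level of each host gene per kb of canonical transcript, in normalized counts on a log axis. Points are means over the 6 libraries and lines run from the lowest to the highest library; SNHG29, GAS5 and SNHG1 reach 25064 or more in every library, and MIR222HG is the highest of the MIRxHG genes at 215.

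Without the division by length, 16 host genes had a mean of at least 1000 normalized counts, all of them SNHG genes, GAS5 or DANCR. SNHG1, GAS5 and SNHG29 made up 58.5% of the summed mean of the 42, and with SNHG3, SNHG15, SNHG8, SNHG5 and SNHG32 this came to 84.1%. The host transcripts took 0.577%, 0.658% and 0.610% of the reads on listed genes in DMSO 1, 2 and 3, and 0.533%, 0.630% and 0.659% in Tan I 1, 2 and 3. The groups overlapped, with means of 0.615% ± 0.0407 (SD, n = 3) for DMSO and 0.607% ± 0.066 (SD, n = 3) for Tan I. The MIRxHG genes together took 0.00633% to 0.00846% of the reads in single libraries.

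The libraries of 1 group differed from each other, and this has to be read with every value below. The reads on listed genes ranged from 21502760 to 31679138 and the size factors from 0.75 to 1.28. The first principal component of all tested genes held 70.8% of the variance, with DMSO 2 (41.1) and Tan I 3 (71.6) at one end, DMSO 1 (-48.0) and Tan I 1 (-46.8) at the other, and DMSO 3 (-26.7) and Tan I 2 (8.65) between. No pair of libraries agreed within sampling noise: the closest pair, DMSO 1 and Tan I 1, had a chi-square of 6.24 per gene. The promyelocyte markers, 5 of 6 of them listed, summed to 70959 to 76924 normalized counts without Tan I and 41825 to 50123 with it, mostly MPO, the peroxidase of the azurophil granules (60389 to 64107 against 33279 to 39450). Of the other 4, CTSG lay at 1536 to 2392 and 839 to 1496 without an overlap, while the groups overlapped for PRTN3 at 1767 to 2340 and 1083 to 1943, AZU1 at 3473 to 4612 and 2505 to 3809, and CD33 at 3473 to 3868 and 3578 to 4119. In bulk samples fewer cells of a type and less RNA per cell cannot be told apart. T cell markers, all 3 listed, summed to 320 to 478 in DMSO and 354 to 620 in Tan I, B cell markers (2 of 3 listed) to 170 to 179 and 159 to 172, epithelial markers (2 of 3) to 223 to 375 and 276 to 434, and the 1 fibroblast marker listed of 3 lay at 74.2 to 120 and 65.5 to 112. None of the 3 erythroid markers was among the listed genes. The part of these differences in the results on the host genes was not tested.

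Within the groups, the snoRNA hosts followed the same axis. DMSO 2 was the highest of the DMSO libraries for 21 of the 24 SNHG-type genes tested (87.5%), beside 45.9% of all 16887 genes tested, and Tan I 3 was the highest Tan I library for 19 of them (79.2%), beside 43.3%. Tan I 1 was the lowest Tan I library for 22 of the 24 (91.7%), beside 42.9% of all genes; the exceptions were SNHG21 and SNHG26. As a median over the SNHG type, DMSO 2 lay 0.32 above the mean of DMSO 1 and 3 on the log2 scale and Tan I 3 lay 0.57 above Tan I 1, where the median of all genes was 0.03 in both. The GENCODE lncRNA genes tested, host genes included, had medians of -0.22 and -0.30. Genes with a canonical transcript of 1000 to 4000 bases, the class that holds the median length of the SNHG type (1238 bases), had 0.15 and 0.22. Genes with shorter transcripts, the class of SNHG29 and GAS5, had 0.00 and 0.16, and genes with longer ones -0.15 and -0.30. The same differences were 0.37 and 0.74 for the protein-coding snoRNA hosts, and 0.40 and 0.48 for the snoRNP proteins. SNHG-type genes scored with and without the tract had like values, 0.33 and 0.57 for the 10 tested with it and 0.27 and 0.42 for the 10 tested without it. Those scored without it included SNHG29, GAS5 and SNHG1. The MIRxHG genes had 0.08 and 0.68 for the 6 tested with the tract and 0.29 and -0.25 for the 8 tested without it. A part of the tract in these differences was not tested.

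The MIRxHG genes did not share 1 pattern. MIR17HG was 1.17 higher in DMSO 2 than in DMSO 1 and 3 and 1.99 higher in Tan I 3 than in Tan I 1 on the log2 scale, and MIR155HG was 0.73 and 1.47 higher. MIR181A1HG moved the other way, at -1.22 and -1.97, as did MIR600HG at -0.64 and -0.82. Of the 16 MIRxHG genes tested, 6 had both DMSO 2 and Tan I 3 as the highest library of their group (37.5%, beside 35.0% of all genes) and 4 had both as the lowest (25.0%, beside 32.1%). These differences lie within groups that the labels treat alike. Between Tan I and DMSO, 29 of the 40 host genes tested had a log2 fold change of less than 0.25 in size, beside 12140 of all 16887 genes.

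**Figure D2:**
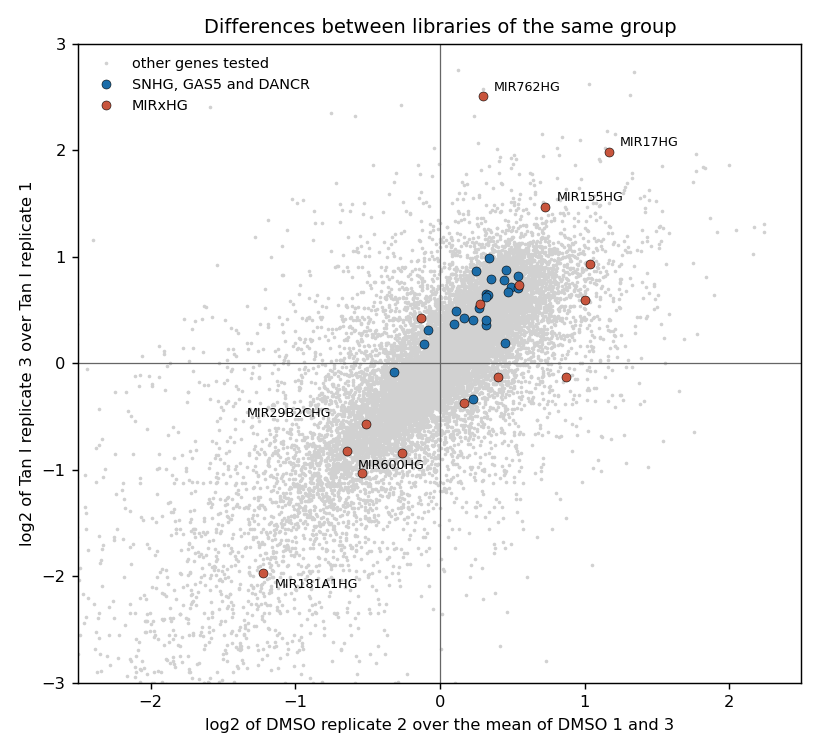
Differences between libraries of the same group, as log2 ratios of normalized counts: DMSO 2 over the mean of DMSO 1 and 3 (horizontal) and Tan I 3 over Tan I 1 (vertical). Each point is 1 gene tested, with host genes in color and 388 of the other genes outside the axes; most SNHG-type genes lie in the upper right, with medians of 0.32 and 0.57, while MIRxHG genes lie on both sides of 0.

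Between Tan I and DMSO, the snoRNA hosts were not called in either direction. Each gene was tested with limma on log2(normalized count + 1) over the 16887 genes whose mean reached 10, which left out SNHG14 and MIRLET7BHG. A gene was called where the unadjusted p was no more than 0.05 and the log2 fold change was 0.25 or more in size. By this rule 1 of the 40 host genes tested was called, where 2.42% of all genes were. It was lower in Tan I (background 1.10%), and 0 were higher (background 1.32%). With Benjamini-Hochberg adjusted p-values limma called 0 host genes and 0% of all genes, the smallest adjusted p among the host genes being 0.999. At an unadjusted p of at most 0.05 alone, limma counted the same 1 host gene and 410 genes in all. By adjusted p edgeR called 0 genes and DESeq2 16, none of them a host gene. DESeq2 gave no adjusted p for MIR1915HG, nor for MIR17HG, MIR181A1HG, MIR181A2HG, MIR210HG, MIR503HG and MIR762HG. The log2 fold changes of the 40 had a median of 0.00, as did all genes, with 20 above and 20 below 0, and ran from -1.02 to 0.64. Without DMSO 2 and Tan I 3, the libraries at one end of the component, the rule also called 1 host gene, the same one.

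GAS5 (ENSG00000234741, chr1:173858559-173868882, minus strand) had 24875, 32832 and 27868 normalized counts in DMSO 1, 2 and 3 and 23507, 30579 and 36970 in Tan I 1, 2 and 3. The groups overlapped widely, the Tan I libraries holding both the lowest and the highest of the 6. Its log2 fold change was 0.07 ± 0.20 (SE), with a 95% confidence interval of -0.40 to 0.55, and over the alternative settings it ran from -0.08 to 0.25. SNHG1 (ENSG00000255717, chr11:62851978-62855953) had 32203, 38012 and 35509 in DMSO and 29124, 35951 and 39325 in Tan I. Again Tan I 1 was the lowest and Tan I 3 the highest of all 6, and the log2 fold change was -0.03 ± 0.17 (SE).

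SNHG29 (ENSG00000175061, chr17:16438767-16480249) had 23042, 33249 and 26127 normalized counts in the DMSO libraries and 20152, 24439 and 34653 in Tan I, a log2 fold change of -0.08 ± 0.24 (SE). SNHG8 had 6507, 8826 and 7407 in DMSO and 5571, 7519 and 9647 in Tan I (log2 fold change -0.02 ± 0.22). SNHG5 had 6011, 8886 and 6902 in DMSO and 5528, 7170 and 10179 in Tan I (0.04 ± 0.25). In all 3 genes DMSO 2 was the highest DMSO library and Tan I 3 the highest of all, so the spread within each group was wider than the difference between the groups.

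The snoRNA hosts with the largest positive log2 fold changes were SNHG12, SNHG3 and SNHG19. SNHG12 (ENSG00000197989, chr1:28578538-28583132, minus strand), host of SNORA16A, SNORA44, SNORA61 and SNORD99, had 3175, 3100 and 3404 normalized counts in the DMSO libraries and 3312, 4378 and 4095 in Tan I. Tan I 2 and 3 lay above all DMSO libraries and Tan I 1 lay among them. The log2 fold change was 0.28 ± 0.13 (SE), with a limma unadjusted p of 0.0779, the smallest of the SNHG type, and an adjusted p of 0.999. SNHG3 (ENSG00000242125, chr1:28505980-28510892, plus strand), host of SNORA73A and SNORA73B, had 8230, 10072 and 8994 in DMSO and 9159, 11996 and 12208 in Tan I. Its order was like that of SNHG12, with Tan I 1 inside the DMSO range, and the log2 fold change was 0.28 ± 0.16 (limma unadjusted p = 0.112). Some of its exon bases are shared on the same strand with the protein-coding gene RCC1.

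SNHG19 had 1482, 2068 and 1800 normalized counts in the DMSO libraries and 1460, 2237 and 2897 in Tan I, with a log2 fold change of 0.26 ± 0.25. Tan I 1 was the lowest of the 6 libraries for this gene and Tan I 3 the highest. DANCR (ENSG00000226950, chr4:52712325-52723623), which holds SNORA26 and MIR4449 in introns, had 1385, 1765 and 1549 in DMSO and 1482, 1974 and 2124 in Tan I. Tan I 1 lay inside the DMSO range and the other Tan I libraries above it, a log2 fold change of 0.24 ± 0.17 (limma unadjusted p = 0.198). SNHG15 had 7901, 7264 and 7811 in DMSO and 7704, 10266 and 8748 in Tan I (0.21 ± 0.14), and here Tan I 2 rather than Tan I 3 was the highest library. SNHG12, SNHG3, SNHG19 and DANCR kept a positive log2 fold change under all alternative settings. Without Tan I 1 all 4 met the unadjusted rule, among 10 of the 40 host genes tested that did. Calls rose over the whole table in that setting, to 1496 of all 16887 genes from 408 with all libraries.

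SNHG32 (ENSG00000204387, chr6:31834608-31839766), which holds SNORD48 and SNORD52, had the most negative log2 fold change of the snoRNA hosts. Its normalized counts were 5990, 8008 and 6874 in DMSO and 4900, 5672 and 7507 in Tan I, so Tan I 1 and 2 lay below all DMSO libraries and Tan I 3 between them. The log2 fold change was -0.22 ± 0.19 (limma unadjusted p = 0.279). In a limma fit with the principal component above as covariate, chosen after seeing the data, it was -0.33 with an adjusted p of 0.0183, and over all its alternatives the adjusted p ran from 0.0183 to 1. SNHG4, which holds SNORA74A and SNORA74D and shares exon bases with MATR3, had 992, 1398 and 1049 in DMSO and 929, 969 and 1063 in Tan I (-0.20 ± 0.16).

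The other SNHG genes lay between these. SNHG6, SNHG7, SNHG9, SNHG10, SNHG20, SNHG21, SNHG26 and SNHG30 had log2 fold changes from 0.01 to 0.20, and SNHG11, SNHG16, SNHG17 and SNHG25 from -0.14 to -0.01. Over the 24 SNHG-type genes tested the median was 0.07, with 15 above 0 and 9 below, and groups that did not overlap were seen in 0 of the 24, beside 7.89% of all genes. Among the 16 host genes with a mean of at least 1000 normalized counts the standard errors were 0.13 to 0.25 and the log2 fold changes -0.22 to 0.28. SNHG14 was below the filter, at 9.62 ± 7.44 normalized counts (SD, n = 3) in the DMSO group and 8.29 ± 5.13 (SD, n = 3) with Tan I. The 10 SNHG-type genes tested that were scored with a TOP tract had a median log2 fold change of 0.02, and the 10 scored without it 0.07. The latter include GAS5 and SNHG3, whose annotated starts lie outside their GENCODE genes, so the split is limited by those starts. For the MIRxHG genes tested the median was -0.21 for the 6 scored with it and -0.20 for the 8 scored without.

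**Figure D3:**
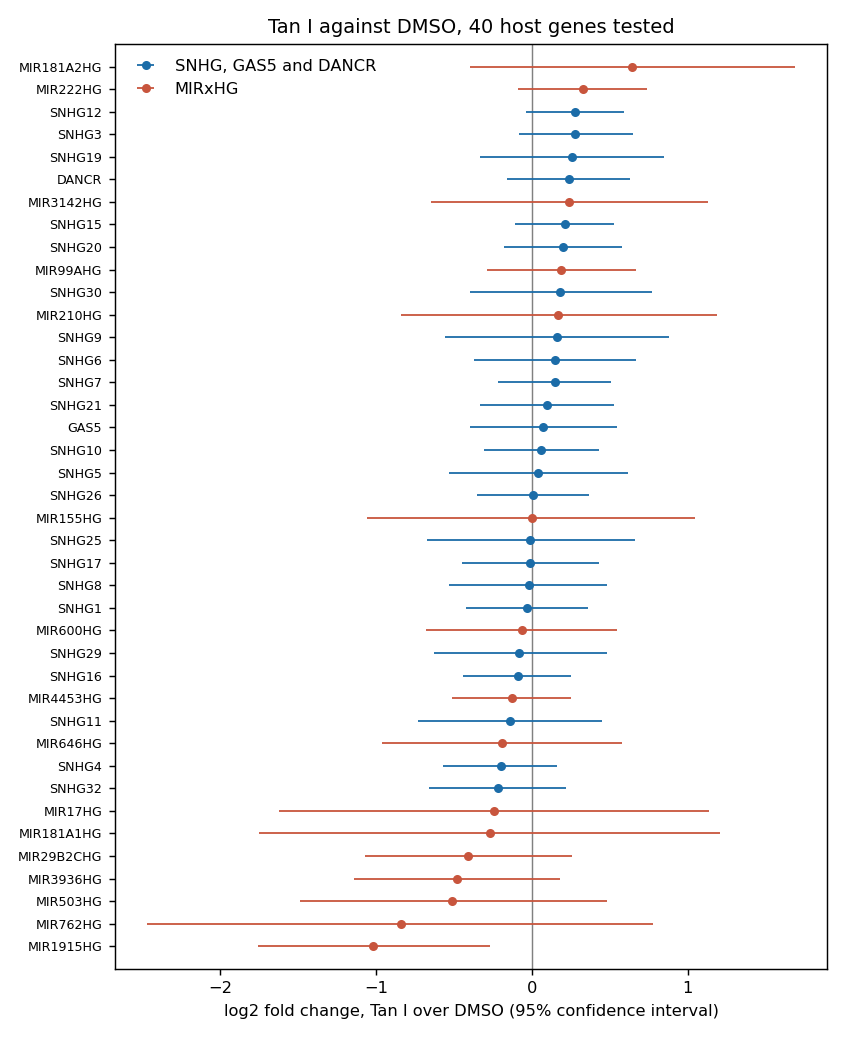
Tan I against DMSO as log2 fold change on the log2(normalized count + 1) scale for the 40 host genes tested, with limma 95% confidence intervals. The interval of MIR1915HG (-1.76 to -0.27) is the only one that does not reach 0, and the SNHG-type genes lie between -0.22 and 0.28.

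MIR1915HG (ENSG00000204682, chr10:21490272-21497260, minus strand) was the host gene called lower in Tan I. It had 49.4, 51.0 and 29.7 normalized counts in DMSO and 23.5, 16.9 and 21.3 in Tan I, which came from 53, 53 and 38 reads and 24, 16 and 16 reads. Every Tan I library lay below every DMSO library, as for 1 of the 40 host genes, where 7.89% of all genes had groups that did not overlap in one direction or the other. The means were 43.4 ± 11.9 and 20.6 ± 3.37 (SD, n = 3), and the log2 fold change was -1.02 ± 0.32 (SE). The limma unadjusted p was 0.0145 and the adjusted p 0.999. The exact two-sided permutation p was 0.1, the smallest that 3 against 3 libraries can give. On the recovered reads the unadjusted p was 0.0130 by edgeR and 0.0124 by DESeq2.

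MIR1915HG stood at 49.4 and 51.0 in DMSO 1 and DMSO 2, the libraries at opposite ends of the first principal component. DMSO 3, which lay between them on it, was lower at 29.7. Tan I 1 and Tan I 3, also at opposite ends, had 23.5 and 21.3. The cause of these differences was not tested. With that component as a covariate the log2 fold change was -1.03 in limma, with an adjusted p of 0.117. Over its alternative settings it ran from -1.26 to -0.78 with adjusted p-values of 0.117 to 1, DESeq2 giving none. The call was lost without DMSO 1 (limma unadjusted p = 0.0597) and without Tan I 2 (0.053). The value rests on at most 53 reads in a library.

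The largest positive log2 fold changes among the miRNA hosts were those of MIR181A2HG and MIR222HG. MIR181A2HG had 7.46, 12.5 and 5.47 normalized counts in DMSO and 11.7, 17.9 and 10.7 in Tan I, on 7 to 17 reads a library. The groups overlapped through DMSO 2, and the log2 fold change was 0.64 ± 0.45 (SE). MIR222HG (ENSG00000270069, chrX:45745210-45770274), whose miRNAs carry the seed GCUACAU shown above, had 242, 246 and 298 in DMSO and 266, 367 and 359 in Tan I. Tan I 2 and 3 were above all DMSO libraries and Tan I 1 was within them, a log2 fold change of 0.33 ± 0.18 (limma unadjusted p = 0.109) that stayed between 0.22 and 0.47 under the alternative settings.

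Below 0, the order after MIR1915HG was MIR762HG, MIR503HG, MIR3936HG and MIR29B2CHG. MIR762HG had 18.6, 25.0 and 21.9 normalized counts in DMSO and 2.93, 22.1 and 21.3 in Tan I. Tan I 1 alone, with 3 reads, was low, and the log2 fold change of -0.84 ± 0.70 became 0.00 without it. MIR503HG had 17.7, 36.6 and 18 in DMSO and 14.7, 11.6 and 22.7 in Tan I (-0.51 ± 0.42). MIR3936HG had 56.9, 50.1 and 63.3 in DMSO and 55.7, 37.9 and 30.7 in Tan I (-0.48 ± 0.28), with Tan I 1 inside the DMSO range and the others below it.

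MIR29B2CHG, the host of the 2 miRNAs with the seed AGCACCA, had 167, 104 and 133 normalized counts in DMSO and 139, 75.9 and 93.4 in Tan I (log2 fold change -0.41 ± 0.28). Both groups ran high in replicate 1 and low in replicate 2, and they overlapped. Some of its exon bases lie opposite exons of CD46, and the strand setting of the counting was not given in the sources used here. The same holds for 20 of the 42 host genes, which share exon bases with a gene on the opposite strand, while 10 share them with a gene on the same strand and 25 in all share some.

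MIR17HG (ENSG00000215417, chr13:91347686-91397592) had 18.6, 57.8 and 33.6 normalized counts in DMSO and 13.7, 27.4 and 57.3 in Tan I, a span of about the same width in both groups. The log2 fold change was -0.24 ± 0.59 (SE), with a 95% confidence interval of -1.62 to 1.14. MIR155HG had 33.6, 57.8 and 35.2 in DMSO and 20.5, 55.9 and 58.7 in Tan I (0.00 ± 0.45). MIR210HG, named for the hypoxia-induced miR-210, had 27.0, 41.4 and 28.9 in DMSO and 37.1, 20 and 62.7 in Tan I (0.17 ± 0.43). In these 3 genes the spread within Tan I covered or nearly covered the whole DMSO range, and the standard errors were 0.43 to 0.59 on the log2 scale.

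MIR600HG, the most abundant MIRxHG transcript before division by length, had 849, 530 and 807 normalized counts in the DMSO libraries and 853, 767 and 484 in Tan I (-0.06 ± 0.26). DMSO 2 and Tan I 3 were its low libraries, the reverse of the snoRNA hosts. MIR99AHG, MIR3142HG, MIR4453HG, MIR646HG and MIR181A1HG had log2 fold changes from -0.27 to 0.24. MIRLET7BHG was below the filter, at 6.22 ± 2.47 normalized counts (SD, n = 3) in the DMSO group and 7.68 ± 2.27 (SD, n = 3) with Tan I. Over the 16 MIRxHG genes tested the median log2 fold change was -0.16, with 5 above 0 and 11 below, and 1 was called. MIR22HG and MIR223HG were not among the listed genes.

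**Figure D4:**
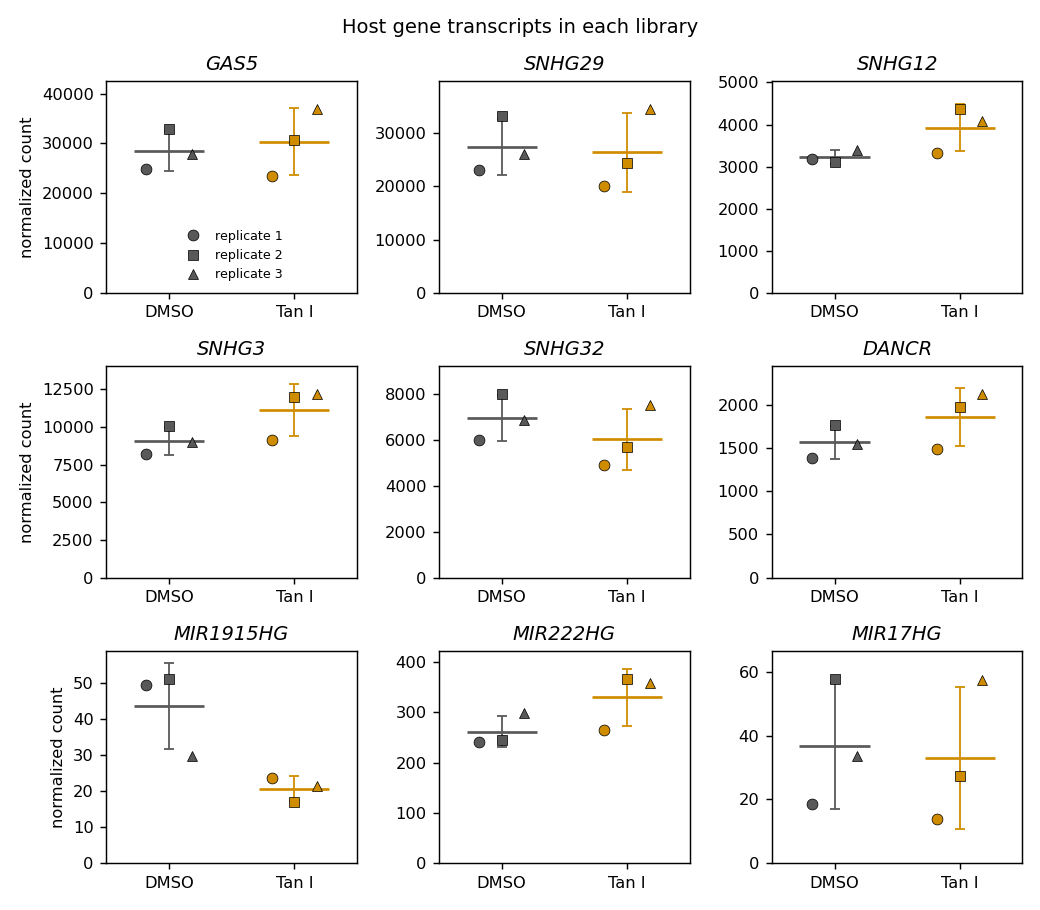
Normalized counts of 9 host genes in the 3 DMSO and 3 Tan I libraries, each panel from 0. Circles, squares and triangles are replicates 1, 2 and 3, the horizontal line is the group mean and the bar its SD; MIR1915HG is the panel in which the Tan I libraries (16.9 to 23.5) all lie below the DMSO libraries (29.7 to 51.0).

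The machinery around these transcripts was read from lists of genes. Of 17 genes for snoRNP proteins, which bind snoRNAs and carry out the RNA modification, 0 were called in either direction. Their median log2 fold change was 0.07, and 13 of 17 lay above 0 (76.5%, beside 49.7% of all genes). FBL, the methyltransferase of box C/D particles, had 5470, 8071 and 6345 normalized counts in the DMSO libraries and 4998, 6339 and 9483 in Tan I (0.03 ± 0.25), with DMSO 2 and Tan I 3 again the highest of their groups. The ends of the list were NOP10 of the H/ACA particle (0.22 ± 0.28) and NAF1, an H/ACA assembly factor (-0.18 ± 0.17).

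Of 16 genes chosen for miRNA processing, 15 were tested, 0 were called in either direction, and the median was -0.13 with 3 above 0 (20%, beside 49.7% of all genes). DMSO 2 and Tan I 3 were both the lowest library of their group for 10 of the 15 (66.7%, beside 32.1% of all genes). A part of this in the median was not tested. DGCR8, the partner of Drosha, had 653, 729 and 677 normalized counts in the DMSO libraries and 599, 574 and 585 in Tan I, so its groups did not overlap. Its log2 fold change was -0.23 ± 0.11 (limma unadjusted p = 0.0813), just under the fold that a call required. XPO5, exportin-5, was the other gene of the list whose Tan I libraries all lay below the DMSO ones, at 1644, 1655 and 1683 in DMSO and 1585, 1570 and 1450 in Tan I (-0.11 ± 0.10). These 2 of 15 stand beside 671 of all 16887 genes whose groups did not overlap with Tan I lower, and 7.89% in either direction, and both were picked after their values were seen. The ends of the list were RAN, the GTPase of nuclear export (0.13 ± 0.22), and DICER1 (-0.38 ± 0.30), for which DMSO 2 and Tan I 3 were the lowest libraries of their groups. TNRC6C was not analysed here.

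Of 17 genes of nonsense-mediated decay, 0 were called in either direction, the median was 0.01, and the ends were SMG9 (0.20 ± 0.13) and the endonuclease SMG6 (-0.38 ± 0.41). Protein-coding snoRNA hosts, most of them ribosomal protein and translation factor genes with introns that hold snoRNAs, gave 0 calls among 33. Their median was 0.07 and 25 lay above 0 (75.8%, beside 49.7% of all genes). HSPA8, the constitutive HSC70 chaperone, had the most positive value of this list (0.62 ± 0.37), from 106231, 45489 and 119633 normalized counts in the DMSO libraries and 126567, 145883 and 114766 in Tan I, with DMSO 2 alone low. NCL, nucleolin, had the most negative (-0.09 ± 0.20). Of 8 noncoding hosts chosen with other names, 6 were tested and 0 called, between MIR4435-2HG (0.13 ± 0.14) and FTX (-0.17 ± 0.20), and the median was 0.03.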

How the data were processed

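RNA-seq was measured in 6 libraries of NB4 cells. Paired-end reads had been mapped by the authors with STAR (GRCh38), multi-mapping reads dropped, the rest counted per gene (featureCounts) and passed to DESeq2. Versions, annotation release and strand setting are not given in the sources used here. The extraction protocol in the labels speaks of embryos, although these samples are labelled NB4 cells. The deposited signal values are normalized counts, reads divided by 1 size factor per library, and 100% gave whole reads within 0.01 reads. Further deposited columns, with log2 fold changes, Wald scores and p-values of the authors, were not used.

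Genes were tested with limma 3.58.1 (R 4.3.3, lmFit and eBayes with trend) on log2(normalized count + 1), for genes with a mean of at least 10, with treatment as the only term and Benjamini-Hochberg adjustment over all 16887 genes. edgeR 4.0.16 (quasi-likelihood, TMM) and DESeq2 1.42.0 were run on the recovered reads as alternatives, beside other pseudocounts, filters and scalings, a replicate block and the removal of each library. Single genes had an exact permutation test in scipy 1.17.1. The script was tested on simulated data that lacked the library differences described above, so that test does not cover their effect on the calls. Standard errors were 0.13 to 0.25 for host genes with means of at least 1000 and 0.28 to 0.70 for those with means under 100. They did not follow the level throughout, as SNHG29 had 0.24 and MIR4453HG, with 128 to 265 reads a library, 0.16. The cause was not tested. Positions and lengths came from GENCODE 44, and sequences and snoRNAs from RefSeq. Values were printed for host genes called or with groups apart, the 5 largest rises and falls and the 8 most abundant. Values were also printed for hosts chosen by name (GAS5, DANCR, MIR17HG, MIR155HG and MIR210HG) and, per list, for the calls and the largest rise and fall. MIR22HG and MIR223HG were chosen by name too but were not among the listed genes. SNHG4, MIR600HG, FBL, DGCR8 and XPO5 were added after their values were seen. The host genes and lists were chosen with earlier results of these data known.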

Additional observations from a re-analysis of the deposited data

How the results depend on the processing

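The unadjusted rule called 408 genes, of which 1 was a host gene, and the host genes had a median log2 fold change of 0.00. With adjusted p-values it called 0 genes and 0 host genes. A mean of at least 50 left MIR1915HG out and 0 host genes called. Leaving out each library in turn gave 160 (without Tan I 2) to 1496 genes (without Tan I 1), with 180 without DMSO 1, 201 without DMSO 3 and 271 without Tan I 3. The same removals gave 0 to 10 host genes: 0 without DMSO 1 and without Tan I 2, 2 without Tan I 3 (SNHG32 beside MIR1915HG) and 10 without Tan I 1, of which 7 were higher (DANCR, MIR222HG, SNHG3, SNHG6, SNHG7, SNHG12 and SNHG19) and 3 lower (MIR1915HG, MIR29B2CHG and MIR3936HG). Their median ran from -0.06 to 0.19, the highest without Tan I 1. The first principal component as a covariate, added after seeing the data, called 1496 genes (194 by adjusted p) and 7 host genes, 6 of them lower, and the cause was not tested. Removing both DMSO 2 and Tan I 3, also added then, called 477 genes and 1 host gene. Rescaling to equal totals moved the median of all genes to -0.06 and the calls from 223 higher and 185 lower to 188 and 250, and the test without the variance trend gave 271 and 285. edgeR called 409 genes and DESeq2 420, with 1 host gene each. For single host genes, 693 of 711 values kept their side of the rule, 16 became called and 2 lost the call. Host genes with means under 100 had standard errors of 0.28 to 0.70, and those with means of at least 1000 had 0.13 to 0.25.

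With the replicate number as a block 348 genes and 1 host gene were called, with a median of 0.00. Deviations of same-numbered libraries from their group means correlated at 0.751, -0.0881 and -0.451. With 3 libraries in each group and 70.8% of the variance in the first principal component, these values cannot decide whether the numbers pair the libraries.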
